A study of Homo sapiens with 4 samples.

Results

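The genes described here are 10 integrin chains that lymphocytes use, 7 alpha chains (ITGA1, ITGA4, ITGA6, ITGAE, ITGAL, ITGAM and ITGAX) and 3 beta chains (ITGB1, ITGB2 and ITGB7). They were picked by name, through the Ensembl identifier of each, out of 20323 genes in the deposited table, and all 10 were found. The study asked what loss of the RNA editing enzyme ADAR1 does to the antitumor capacity of NK cells. Bulk RNA was sequenced from NK-92, an established human natural killer cell line grown with IL-2, in 2 libraries of NK scramble cells (labelled shscramble, a lentiviral hairpin of scrambled sequence) and 2 of NK shADAR1 cells (a lentiviral hairpin against ADAR, the gene of ADAR1). All 4 libraries came from cells spun with lentivirus in polybrene, so that transduction was common to both groups, and the design text names the replicates as independent biological ones. The model is 1 cell line, no selection of transduced cells is given for these libraries, and the study's text names the hairpin shADAR1-2. The study also lists a pair of different hairpins called shADAR1-1 and shADAR1-2, and the NK shADAR1 libraries carry these same titles. They were read here as replicate numbers, after the design text, but 1 library per hairpin cannot be told apart from this by the titles. The libraries held 39529705 and 39960491 estimated counts in NK scramble, against 37881704 and 38552577 in NK shADAR1.

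Integrins are receptors made of 1 alpha and 1 beta chain that tie a cell to the extracellular matrix or to another cell. Leukocytes hold the beta 2 family, in which ITGB2 pairs with ITGAL to form LFA-1, the receptor for ICAM-1 that seals the contact of an NK cell with its target, with ITGAM to form Mac-1, and with ITGAX to form CD11c/CD18. ITGB1 pairs with ITGA1 as a collagen receptor, with ITGA4 as VLA-4, which holds VCAM-1 and fibronectin, and with ITGA6 as a laminin receptor, whereas ITGB7 pairs with ITGA4 to bind MAdCAM-1 on gut vessels and with ITGAE to bind E-cadherin on epithelium. Chains that lack a partner are generally kept from the cell surface, and binding further depends on talin and kindlin at the beta tail, neither of which RNA levels show.

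The hairpin is shown because the integrin transcripts were searched for letters that pair with its seed. The guide strand of shADAR1-2 is printed 5′ to 3′ as DNA, with its seed, bases 2 to 8, in capitals.

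shADAR1-2 guide: tGCACTTCctcgggacacggc

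The letters that pair with this seed, GAAGTGC, occurred once in each of 2 of the 10 longest protein-coding integrin transcripts. In ITGB2 they lay in coding exon 14 of 17 (ITGB2-205, minus strand, GRCh38 chr21:44889467-44889473), and in ITGB7 in coding exon 3 of 16 (ITGB7-201, minus strand, GRCh38 chr12:53200282-53200288). Each is printed in the direction of the transcript with 14 preceding bases, the matching letters in capitals.

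ITGB2 site: ctctgcttctgcggGAAGTGC

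ITGB7 site: gccccctcctgccaGAAGTGC

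Of all 19542 protein-coding genes so scanned, 21.5% held at least 1 such stretch, close to the 2 of 10 here. A match of 7 letters is a description and no target, and the values of ITGB2 and ITGB7 are given with their families.

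Promoter sequences were taken from RefSeq (GRCh38.p14), which held an entry for 7 of the 10 genes and none for ITGAL, ITGAX and ITGB2 in the table used. The 3 shown belong to ITGA1, ITGB1 and ITGAM, the members with the largest positive log2 fold changes. Each is the 150 bases before the start site, 5′ to 3′ on the strand of the gene, at chr5:52787766-52787915 (plus strand) for ITGA1, chr10:32958231-32958380 (minus strand, the upstream one of a pair of entries) for ITGB1, and chr16:31259825-31259974 (plus strand) for ITGAM. Capitals mark, on either strand, the PU.1 box GAGGAA, the RUNX site TGTGGT, the Sp1 box GGGCGG and the TATA box TATAAA.

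ITGA1: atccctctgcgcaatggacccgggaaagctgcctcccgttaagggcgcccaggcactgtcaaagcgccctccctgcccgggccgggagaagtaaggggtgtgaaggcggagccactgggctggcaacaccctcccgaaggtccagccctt

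ITGB1: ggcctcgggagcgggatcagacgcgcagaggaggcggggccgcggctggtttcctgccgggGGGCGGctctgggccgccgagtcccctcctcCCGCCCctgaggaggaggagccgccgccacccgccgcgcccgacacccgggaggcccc

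ITGAM: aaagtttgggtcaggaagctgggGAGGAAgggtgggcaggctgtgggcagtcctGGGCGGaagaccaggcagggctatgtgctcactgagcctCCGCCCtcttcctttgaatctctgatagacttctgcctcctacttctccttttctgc

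Over the full 250 bases before the start, the ITGA1 window held none of the 4 motifs, the ITGB1 window 1 PU.1 box and 3 Sp1 boxes, and the ITGAM window 1 PU.1 box and 2 Sp1 boxes. ITGAE and ITGB7 each held 1 PU.1 box and ITGA4 none of the 4. Of the pair of ITGA6 entries, the first held 1 TATA box and the other 1 RUNX site and 3 Sp1 boxes, and the downstream ITGB1 entry held 3 TATA boxes. Of 35116 human promoter windows of the same length, 23.6% held a PU.1 box, 42.6% an Sp1 box, 11% a RUNX site and 10.7% a TATA box. The shorter ETS core GGAA, which is part of the PU.1 box, stood in 92.7% of windows and 3 times in that of ITGA1. These letters are a description of the windows, and factor binding was not measured.

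The libraries carried the markers of NK cells. All 12 listed NK markers passed the filter on low counts, led by NKG7, GNLY and GZMB (granule proteins), and their summed level was 5234 and 5756 CPM (estimated counts scaled to a common library size by TMM) in NK scramble, against 5964 and 5405 CPM in NK shADAR1. Among 9 T cell markers CD8A and CD8B were at 0 in every library and CD3G, CD4 and CD5 had at most 9 counts, while TRAC, CD28 and CD6 were present. CD3D had 10 and 11 counts in NK scramble, against 24 and 16 counts in NK shADAR1. Of the 4 that passed the filter, CD3D and CD6 were higher in both NK shADAR1 libraries, as were 13.3% of all tested genes. The groups overlapped for TRAC and CD28. The summed level of the 9 markers was 268.0 and 340.0 CPM in NK scramble, against 349.4 and 341.8 CPM in NK shADAR1.

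Of the other cell types, 9 myeloid markers summed to 6.29 and 5.29 CPM in NK scramble, against 6.15 and 8.03 CPM in NK shADAR1, with CD68, a lysosomal protein, the most abundant per length and CD14 at no more than 3 counts. The 6 B cell markers were almost all PAX5 and summed to 24.6 and 22.1 CPM in NK scramble, against 46.3 and 20.1 CPM in NK shADAR1, so that replicate 1 of NK shADAR1 stood above the other 3. Among 4 platelet markers PF4, PPBP and GP9 were at 0. GP1BA was at 0.83 and 1.27 CPM in NK scramble, against 1.88 and 1.71 CPM in NK shADAR1, both higher. The 4 erythroid markers summed to at most 0.03 CPM. Of 6 fibroblast and epithelial markers DCN, a matrix proteoglycan, was the 1 that passed the filter, at 0.23 and 0.33 CPM in NK scramble, against 0.74 and 0.70 CPM in NK shADAR1. The part of these markers in any integrin value was not tested.

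The targeted gene was lower in NK shADAR1, but did not pass the test. ADAR stood at 655.0 and 682.1 CPM in NK scramble, against 575.1 and 482.2 CPM in NK shADAR1. Both NK shADAR1 libraries lay below both NK scramble libraries, with means of 668.5 ± 19.2 and 528.6 ± 65.7 CPM (SD, n = 2 each). The log2 fold change was -0.34 (SE 0.20, 95% confidence interval -0.79 to 0.11) with an adjusted p of 1.00 in edgeR's quasi-likelihood test. ADAR RNA in NK shADAR1 was thus 0.79 of that in NK scramble by the fit, and ADAR1 protein was not measured in these libraries. In bulk RNA, fewer cells holding a transcript and less of it per cell cannot be told apart, here and for every integrin below.

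Of the 10 genes, the beta 2 chain ITGB2 and its partner ITGAL had the highest RNA levels per length in the NK-92 cells. On the FPKM scale, which divides counts by transcript length and so allows genes to be set against each other, the mean level over all 4 libraries was 203.2 ± 5.04 for ITGB2 and 134.3 ± 24.3 for ITGAL (SD, n = 4). Below them stood ITGB1 (74.7 ± 16.6 FPKM), ITGB7 (71.0 ± 8.00 FPKM) and ITGA4 (55.2 ± 12.5 FPKM), then ITGAX (23.0 ± 4.26 FPKM). The third tier held ITGA6 (6.28 ± 1.05 FPKM), ITGAM (5.32 ± 0.72 FPKM) and ITGA1 (4.0 ± 2.25 FPKM), and ITGAE was last at 0.76 ± 0.12 FPKM. In every library ITGB2 was above ITGAL, and the ranges of ITGB2, ITGAL, ITGAX and ITGAE met those of none of their neighbors among the 10. The ranges of ITGB1, ITGB7 and ITGA4 overlapped in that order, as did those of ITGA6, ITGAM and ITGA1. ITGB7 was nonetheless above ITGA4 in 4 of 4 libraries, while the other neighbors within these sets kept their order in 3 of 4.

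**Figure D1:**
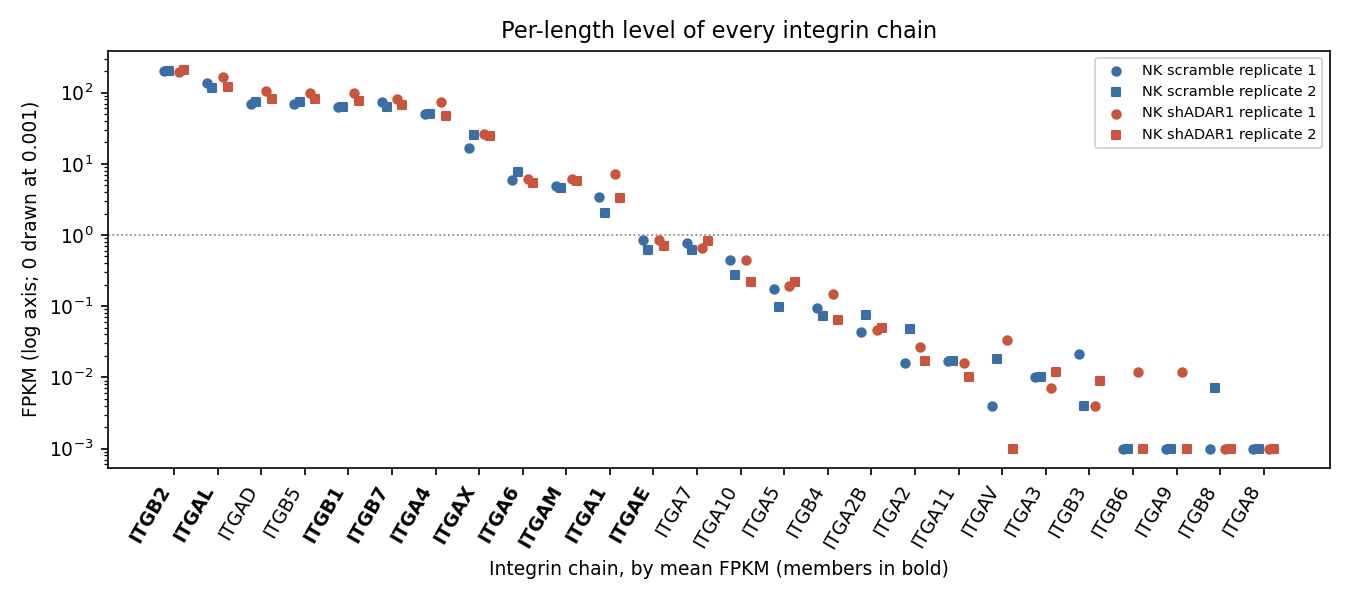
FPKM of all 26 integrin chains (log axis, values of 0 drawn at the foot of the axis), ordered by mean level, with each of the 4 libraries as a point, blue for NK scramble and red for NK shADAR1, and the 10 listed genes in bold. ITGB2 at 203.2 FPKM and ITGAL at 134.3 FPKM lead, ITGAE at 0.76 FPKM is the lowest of the 10, and the dotted line marks 1 FPKM.

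No integrin chain passed the test between NK shADAR1 and NK scramble. A gene was called at a Benjamini-Hochberg adjusted p under 0.05 over all tested genes with a fold change of at least 1.5, and edgeR called 0 of the 10 integrins, as it called 0% of the 11810 genes tested. At an unadjusted p under 0.05, edgeR had 293 genes (2.48% in either direction, 1.7% higher in NK shADAR1), and 2 of the 10 integrins were among those higher, ITGA1 and ITGB1. DESeq2 also called 0 genes and had 289 of 15605 (1.85%) at an unadjusted p under 0.05, the same 2 integrins included. Of the 10 log2 fold changes 9 were above 0, against 50% of all tested genes, and their median was 0.18 against 0.00. Without replicate 1 of NK shADAR1 6 were above 0 and the median was 0.06. The CPM of the groups did not overlap for 3 integrins, ITGB1 and ITGAM with both NK shADAR1 libraries higher (13.3% of tested genes) and ITGA6 with both lower (12.6%). All 10 passed the filter on low counts. With 2 libraries per group an exact two-sided permutation test cannot give a p below 0.333, and none was used.

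**Figure D2:**
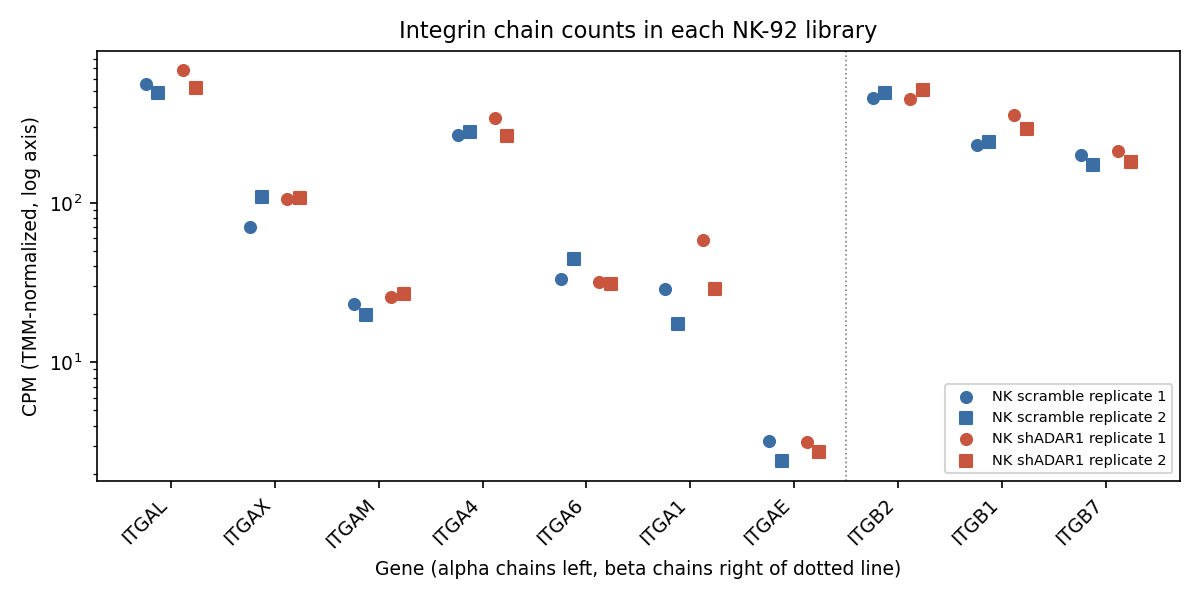
CPM (log axis) of the 10 integrins, alpha chains left and beta chains right of the dotted line, with each of the 4 libraries as a point, blue for NK scramble and red for NK shADAR1. For ITGB1 and ITGAM the NK shADAR1 points lie above both NK scramble points, for ITGA6 below them, and for the other 7 the groups overlap.

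The largest differences of the 10 were in the beta 1 family. ITGB1, the common beta chain of the matrix receptors, was at 230.3 and 242.1 CPM in NK scramble, against 354.6 and 292.5 CPM in NK shADAR1. There was no overlap, as both NK shADAR1 libraries were higher, replicate 1 the more so. The fitted log2 fold change was 0.45 (SE 0.20, 95% confidence interval 0.01 to 0.90; unadjusted p = 0.0448 and adjusted p = 1.00 in edgeR's quasi-likelihood test). With each library left out in turn the value ran from 0.31 to 0.58. ITGB1 (chr10:32900319-33005792, minus strand, GRCh38) was counted in whole reads in all 4 libraries.

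ITGA1, the alpha chain of a collagen receptor and a mark of tissue-resident lymphocytes, had the largest log2 fold change of the 10 and also the widest spread. It was at 28.8 and 17.3 CPM in NK scramble, against 58.5 and 28.7 CPM in NK shADAR1. Replicate 1 of NK shADAR1 stood alone above the rest, while replicate 2 of NK shADAR1 and replicate 1 of NK scramble were level, so that the groups overlapped. The log2 fold change was 0.92 (SE 0.34, 95% confidence interval 0.17 to 1.68; unadjusted p = 0.0212 and adjusted p = 1.00 in edgeR's quasi-likelihood test). Without replicate 1 of NK shADAR1 it was 0.32, and without replicate 1 of NK scramble it was 1.33 with an adjusted p of 0.011 in edgeR.

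The count of ITGA1 is also an estimate that appears to share reads with another gene. ITGA1 spans chr5:52787896-52959210 (plus strand, GRCh38), and PELO, a ribosome rescue factor, lies inside that span on the same strand. The counts of both were fractions, and in 4 of 4 libraries they summed to a whole number within 0.02 counts. The sums were 2820 and 2265 counts in NK scramble, against 3701 and 2593 counts in NK shADAR1. Of these ITGA1 was given 40.7% and 29.9% in NK scramble, against 62.1% and 41.4% in NK shADAR1. The share given to ITGA1 thus varied more than 2-fold over the 4 libraries, more than the sums did.

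Taken as 1 feature, ITGA1 and PELO together were at 70.6 and 57.7 CPM in NK scramble, against 94.1 and 69.4 CPM in NK shADAR1. The groups overlapped, and the log2 fold change was 0.35 (SE 0.22, unadjusted p = 0.148 and adjusted p = 1.00 in edgeR's quasi-likelihood test), against 0.92 for ITGA1 alone and -0.11 for PELO alone. The sum includes the reads of PELO itself, so its smaller value does not measure the error of ITGA1, and how the reads should be divided between the genes was not tested. The fractional counts of ITGA4 and its neighbor CERKL, and of ITGB7 and ZNF740, which overlaps it on the opposite strand, also summed to whole numbers in 4 of 4 libraries, but ITGA4 took 99.8% to 100.0% of its sum and ITGB7 73.4% to 81.0%. As sums, the log2 fold changes were 0.16 for ITGA4 with CERKL and 0.09 for ITGB7 with ZNF740, next to 0.16 and 0.08 alone.

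The other 2 alpha chains of the beta 1 family had smaller differences, 1 above and 1 below 0. ITGA4, which also serves ITGB7, was at 264.5 and 277.6 CPM in NK scramble, against 340.4 and 264.0 CPM in NK shADAR1. Replicate 1 of NK shADAR1 was high and replicate 2 was the lowest of the 4, so that the groups overlapped, and the log2 fold change was 0.16 (95% confidence interval -0.30 to 0.61). This value turned to -0.04 without replicate 1 of NK shADAR1. ITGA6, the laminin receptor chain, was at 33.1 and 44.4 CPM in NK scramble, against 32.0 and 30.7 CPM in NK shADAR1. Both NK shADAR1 libraries were below both NK scramble libraries, by a small margin from replicate 1, with a log2 fold change of -0.30 (SE 0.21, 95% confidence interval -0.78 to 0.17). Without replicate 2 of NK scramble it was -0.08, and without replicate 1 of NK scramble -0.51. The adjusted p of each was 1.00 in edgeR.

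Among the 4 listed chains of the beta 2 family the groups were apart for ITGAM and overlapped for the rest. ITGB2 was at 454.6 and 486.5 CPM in NK scramble, against 450.0 and 509.4 CPM in NK shADAR1. The groups overlapped, and the log2 fold change was 0.03 (95% confidence interval -0.41 to 0.47). ITGAL, the LFA-1 alpha chain, was at 554.5 and 490.8 CPM in NK scramble, against 678.3 and 525.1 CPM in NK shADAR1. Only replicate 1 of NK shADAR1 was above both NK scramble libraries, and the log2 fold change of 0.20 (95% confidence interval -0.27 to 0.68) became 0.008 without that library and 0.37 without replicate 2 of NK shADAR1.

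ITGAM, the Mac-1 alpha chain and a mark of mature NK cells as well as of myeloid cells, was at 23.0 and 19.8 CPM in NK scramble, against 25.7 and 27.0 CPM in NK shADAR1. The groups did not overlap, NK shADAR1 being the higher, but the NK scramble libraries differed from each other by more than the gap between the groups, and the log2 fold change was 0.30 (SE 0.20, 95% confidence interval -0.16 to 0.75; unadjusted p = 0.177 and adjusted p = 1.00 in edgeR). It ran from 0.19 to 0.41 with each library left out in turn. Of the 9 myeloid markers 3 passed the filter, and 1 of these, CSF1R, was higher in both NK shADAR1 libraries, as were 13.3% of all tested genes. CSF1R was at 1.60 and 1.32 CPM in NK scramble, against 2.19 and 2.30 CPM in NK shADAR1. CD14, CD163 and FCGR1A did not pass the filter. Of these CD14 and CD163, both at no more than 0.13 CPM, were higher in both NK shADAR1 libraries. FCGR1A was lower in both, at no more than 0.23 CPM, and the groups overlapped or were all at 0 for the other 5, among them CD68, the most abundant, S100A8 at 0 throughout and LYZ with at most 1 count. ITGAX, the CD11c chain, was at 70.9 and 108.9 CPM in NK scramble, against 105.3 and 107.3 CPM in NK shADAR1. Replicate 1 of NK scramble was low and the other 3 were level, so that the log2 fold change of 0.24 (95% confidence interval -0.28 to 0.76) became -0.04 without that library.

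Both groups overlapped for the beta 7 chain and for ITGAE. ITGB7 was at 198.5 and 172.7 CPM in NK scramble, against 211.6 and 179.8 CPM in NK shADAR1. Replicate 1 was the higher in both groups and the groups overlapped, with a log2 fold change of 0.08 (95% confidence interval -0.36 to 0.51). ITGAE, which as CD103 marks lymphocytes held in epithelium, was at 3.18 and 2.39 CPM in NK scramble, against 3.15 and 2.73 CPM in NK shADAR1. These are 94 to 127 counts, and the log2 fold change was 0.08 with a wide interval of -0.74 to 0.90. ITGB7 and ITGAE were also the closest pair of the 10 in profile, by a small margin. Their Euclidean distance, between log2 CPM centered on the gene mean over 4 libraries, was 0.145, against 0.154 for ITGB7 and ITGAL. ITGA1 was the farthest from any other, at 0.89 from ITGB1.

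**Figure D3:**
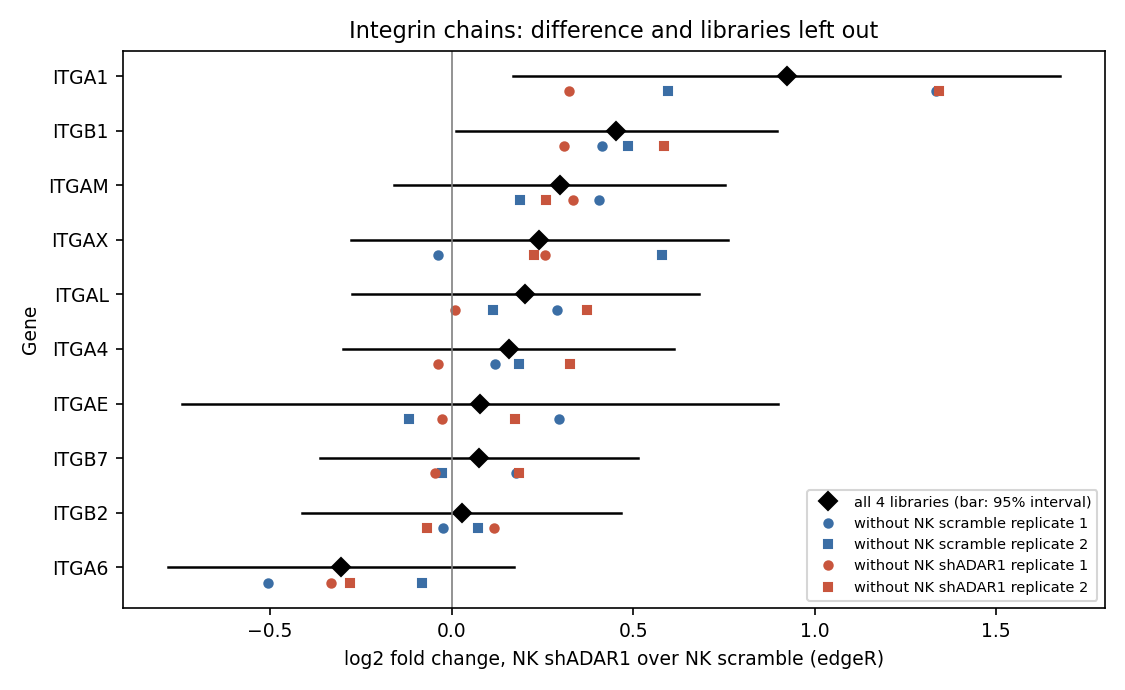
Log2 fold change of NK shADAR1 over NK scramble (edgeR) for the 10 integrins, with all 4 libraries as a diamond on its 95% confidence interval and with each library left out in turn as a smaller point below it. The intervals of ITGA1 (0.17 to 1.68) and ITGB1 (0.01 to 0.90) lie above 0 before adjustment and those of the other 8 cross it, and the ITGA1 points spread from 0.32 to 1.34.

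The balance of partner chains was compared within each library as the summed FPKM of the alpha chains known to pair with a beta chain, divided by the FPKM of that beta chain. For beta 1 this ratio was 0.98 and 0.96 in NK scramble, against 0.91 and 0.75 in NK shADAR1, both lower. For beta 2, with ITGAD counted among the alpha chains, it was 1.12 and 1.07 in NK scramble, against 1.54 and 1.1 in NK shADAR1, where replicate 1 stood apart and replicate 2 lay between the NK scramble libraries. For beta 7 it was 0.68 and 0.80 in NK scramble, against 0.93 and 0.72 in NK shADAR1, and the groups overlapped. ITGA4 counts toward both beta 1 and beta 7. Its FPKM in replicate 1 of NK shADAR1 was higher than its count would give, since counts per FPKM there were 0.92 of the mean of the 4 libraries, against 1.01 to 1.04 in the others. No test was run on these ratios, which rest on RNA and not on paired protein.

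The other 16 integrin chains were mostly low, apart from 2 that were as abundant as ITGB1. Of these chains 6 passed the filter on low counts, none was called in edgeR, and 0 were at an unadjusted p under 0.05. Of all 26 chains 11 had a mean above 1 FPKM, 9 of them among the 10 listed genes and the other 2 being ITGAD (82.1 ± 15.95 FPKM) and ITGB5 (80.5 ± 13.4 FPKM).

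ITGAD, the CD11d alpha chain of the beta 2 family, was at 267.2 and 288.7 CPM in NK scramble, against 392.8 and 326.2 CPM in NK shADAR1. Both NK shADAR1 libraries were higher, with a log2 fold change of 0.37 (SE 0.20, unadjusted p = 0.0923 and adjusted p = 1.00 in edgeR). It made up 30.4% and 33.6% of the beta 2 alpha FPKM in NK scramble, against 34.5% and 35.4% in NK shADAR1. ITGAL made up 60.1% and 52.7% in NK scramble, against 55.1% and 51.5% in NK shADAR1, so that ITGAD was second to it in every library.

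ITGB5, a beta chain for vitronectin, was at 140.8 and 148.7 CPM in NK scramble, against 203.2 and 165.5 CPM in NK shADAR1. Here too both NK shADAR1 libraries were the higher, with a log2 fold change of 0.35 (SE 0.20, unadjusted p = 0.107 and adjusted p = 1.00 in edgeR). Its known partner ITGAV had 1 and 5 counts in NK scramble, against 6 and 0 counts in NK shADAR1, at most 0.03 FPKM. The beta 5 chain was thus abundant as RNA in libraries that held almost no RNA of its alpha chain. ITGA8, an alpha chain of the beta 1 family, was at 0 counts in all 4 libraries, and the collagen receptor chain ITGA2 and the fibronectin receptor chain ITGA5 stayed below 1 CPM.

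Genes that switch integrins on had a median close to that of all genes. Of 16 listed activators 15 passed the filter, with a median log2 fold change of 0.05 against 0.00 over all tested genes, and 10 were above 0, next to 50% of all tested genes. FYB1, an adaptor that links the T cell or NK cell receptor to RAP1 and integrins, was the 1 at an unadjusted p under 0.05, where 1.7% of tested genes were higher. It was at 110.6 and 131.2 CPM in NK scramble, against 175.5 and 168.6 CPM in NK shADAR1. The NK shADAR1 libraries were both clearly above the NK scramble pair, with a log2 fold change of 0.51 (SE 0.20, unadjusted p = 0.0257 and adjusted p = 1.00 in edgeR's quasi-likelihood test). The most abundant activators per length were RAP1A, the small GTPase that recruits talin (log2 fold change -0.04), FERMT3, the kindlin of blood cells (-0.11), and SKAP1, the adaptor that binds FYB1 (0.08).

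All 6 listed inhibitors passed the filter, with a median log2 fold change of 0.05 and 0 at an unadjusted p under 0.05. FLNA, the filamin that competes with talin for the beta tail, was at 1931 and 1570 CPM in NK scramble, against 1958 and 1629 CPM in NK shADAR1. Its groups overlapped, with replicate 1 the higher in both. ITGB1BP1, which holds beta 1 inactive, and SIPA1, which switches RAP1 off, had log2 fold changes of 0.07 and -0.07.

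Adhesion complex and outside-in signalling genes numbered 14 tested of 18, with a median log2 fold change of 0.02 and 0 at an unadjusted p under 0.05. ZYX and ACTN4, which tie adhesions to actin, had log2 fold changes of 0.09 and 0.12, and PXN, the scaffold paxillin, had -0.11. Among ligands and counter-receptors 8 of 14 were tested, with a median of 0.04 and 0 at an unadjusted p under 0.05. ICAM1, the LFA-1 ligand, was their most abundant per length, at 141.6 and 205.4 CPM in NK scramble, against 122.9 and 147.2 CPM in NK shADAR1. The groups overlapped, since replicate 2 of NK shADAR1 lay above replicate 1 of NK scramble, and the log2 fold change was -0.36 (95% confidence interval -0.87 to 0.15). ICAM2, a second LFA-1 ligand, and F11R, the junction protein JAM-A, had 0.05 and -0.03.

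Membrane proteins that sit beside integrins numbered 10 tested of 11, and their median was -0.04 on the log2 scale, and 0.01 without replicate 1 of NK scramble. SLC3A2, the CD98 heavy chain that binds beta tails and carries amino acid transporters, was at 224.6 and 165.2 CPM in NK scramble, against 121.8 and 141.4 CPM in NK shADAR1. The groups did not overlap, NK shADAR1 being lower, with a log2 fold change of -0.57 (SE 0.22, unadjusted p = 0.0249 and adjusted p = 1.00 in edgeR's quasi-likelihood test), and 0.779% of tested genes were lower at that threshold. The tetraspanins CD53 and CD63 had log2 fold changes of -0.07 and 0.18, and BSG, a partner of beta 1 integrins, had -0.22.

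**Figure D4:**
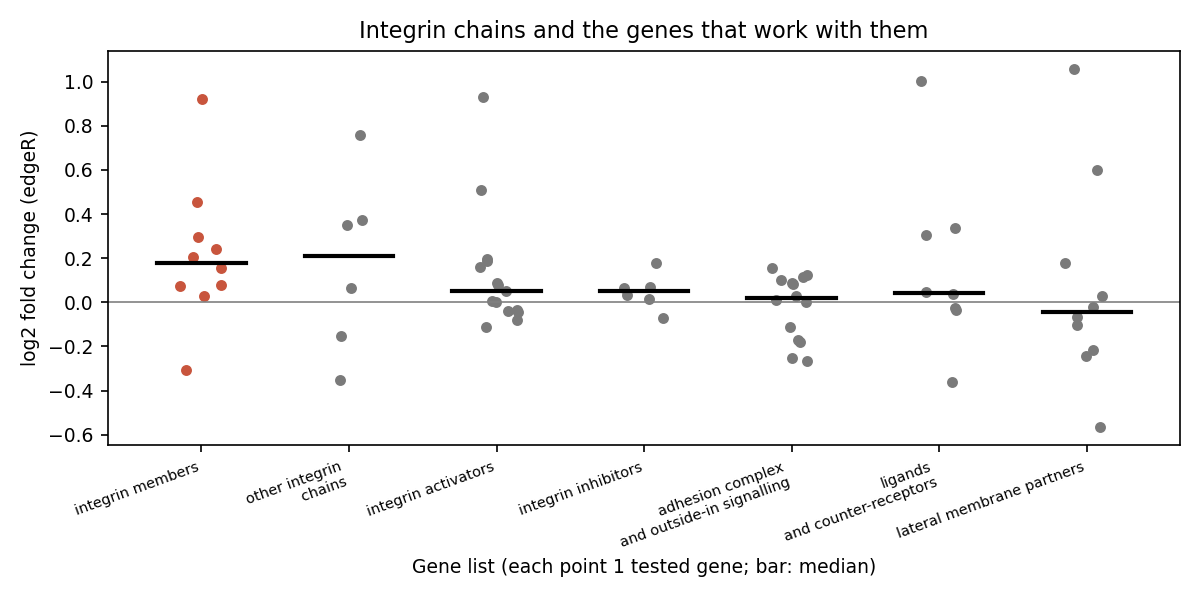
Log2 fold change of NK shADAR1 against NK scramble for every tested gene of the 10 integrins, the other integrin chains and the 5 lists of integrin regulators, signalling partners and ligands, 1 point per gene with the list median as a bar. The medians run from -0.04 for lateral membrane partners to 0.21 for the other integrin chains (-0.16 under DESeq2 or without the filter on low counts), next to 0.18 for the 10 integrins and 0.00 over all tested genes.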

How the data were processed

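RNA was measured in 4 NK-92 libraries, 2 per group, by oligo(dT) selection and Illumina sequencing. The authors deposited estimated counts per gene, not normalized, and FPKM values, scaled by transcript length and mapped fragments. The submitters' processing notes name fastp 0.18.0, and the aligner, counting program, build and annotation are not given in the sources used here. Estimated counts were rounded and, in R 4.3.3, put through filterByExpr (minimum count 10) and TMM scaling, and 11810 genes were tested with the quasi-likelihood F test of edgeR 4.0.16 without covariates. The SE is the size of the log2 fold change over the square root of F. Alternatives used DESeq2 1.42.0, the study's own tool, and limma 3.58.1. Scripts were tested on simulated data. The members and lists were chosen with earlier results of these data known, and the text names all 10 members and ADAR. For each list of integrin regulators, signalling partners and ligands it names the 3 of highest FPKM and those at an unadjusted p under 0.05. ITGAD, ITGB5, ITGAV, the other unlisted chains and the marker genes given with values were singled out after their values were seen. Positions and transcripts were looked up in GENCODE on GRCh38, and shared reads were inferred from fractional counts of neighboring genes that summed to whole numbers.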

Additional observations from a re-analysis of the deposited data

How the results depend on the processing

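With 2 libraries per group intervals are wide, widest for the low counts of ITGAE. Every member kept the sign of its log2 fold change under all 10 settings other than leaving out a library. Calls over the whole table were less stable. With the replicate number as a block (replicate block) 13 genes were called and 681 were at an unadjusted p under 0.05, against 0 and 293. Under it 0 members were called, ITGA1 having 0.88 with an adjusted p of 0.073 in edgeR and ITGB1 an adjusted p of 0.575. ADAR had -0.34 under the block (unadjusted p = 0.0466 and adjusted p = 0.853 in edgeR), against an unadjusted p of 0.127 in edgeR without it. The titles give the groups the same numbers, and across the tested genes the deviations of same-numbered libraries correlated at 0.31. Whether the numbers mark pairs was not tested. With at most 2 pairs, the main fit did not use them as pairing. The members at an unadjusted p under 0.05 were 1 under limma on log2(FPKM + 0.1), 1 under log2(FPKM + 1) and 1 with the shared counts summed, a setting added after the data were seen.

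Leaving out each library in turn gave 1 to 47 genes called (47 without replicate 1 of NK scramble, 2 without its replicate 2, 16 and 1 without replicates 1 and 2 of NK shADAR1) and 204 to 692 at an unadjusted p under 0.05. The lone library of a group was then assumed to vary like the other group. Of the members 0 to 1 were called, 0 to 2 were at an unadjusted p under 0.05, and 6 to 8 had a log2 fold change above 0. Their median ran from 0.062 to 0.24, the low end without replicate 1 of NK shADAR1. ADAR ran from -0.47 to -0.22. Signs turned for ITGA4 (-0.037 to 0.33), ITGAE (-0.12 to 0.30), ITGAX (-0.038 to 0.58), ITGB2 (-0.067 to 0.12) and ITGB7 (-0.045 to 0.19), 8 of 40 such values. Of the list medians, those of inhibitors (-0.09 to 0.13), ligands (-0.08 to 0.06) and lateral partners (-0.05 to 0.01) also turned sign. Those of activators (0.01 to 0.08) and of adhesion complex and outside-in signalling genes (0.004 to 0.02) stayed above 0. With length and GC content regressed out and all libraries kept, these medians were 0.004 and 0.0006. The median of the other integrin chains was -0.16 under DESeq2 and without the filter on low counts, settings that add genes of few counts. The log2 ratio of alpha to beta chains, NK shADAR1 minus NK scramble, ran from -0.37 to -0.10 for beta 1, from -0.001 to 0.49 for beta 2 and from -0.03 to 0.33 for beta 7. With all libraries kept it was -0.23 for beta 1, 0.25 for beta 2 and 0.15 for beta 7. Counts per kilobase in place of FPKM gave -0.31, 0.24 and 0.07 in that order. The causes were not tested.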
